A study of Mus musculus with 3 samples.

Results

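The adhesion G protein-coupled receptors were followed in 3 transcriptomes of sorted mouse small intestinal epithelium. The genes were taken from a given list of 30 family members, and all 30 were found among the 24183 genes of the series. One pooled library stood for each group, and every mouse was labelled C57BL/6. All cells came from the villus fraction of the upper small intestine. GIP-GFP held cells that carry a green reporter for the incretin hormone GIP. Ngn3-TOMATO held cells that carry a tomato reporter because they descend from progenitors with Neurogenin 3, in male mice from a cross of Ngn3-Cre with ROSA26-LoxP-STOP-LoxP-tomato. Ngn3-negative, labelled Ngn3-neg, held the cells of that cross without tomato, and both tomato sorts left out cells stained for the blood cell marker CD45. No such gate is stated for GIP-GFP. These are called the GIP, tomato and negative libraries, and the first 2 together the reporter libraries. The sources used here state neither the age of the mice nor the number in each pool. The tomato mark is permanent, so it stays on any descendant of a Neurogenin 3 progenitor, whatever that cell has become.

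Adhesion receptors join a long extracellular part, often built from adhesion domains, to the membrane-spanning bundle of a G protein-coupled receptor. Many cut themselves at a site next to the membrane, and a short stretch exposed at the cut, the tethered agonist, switches the receptor on when the outer part is pulled away or moved. They bind matrix proteins and proteins on neighbouring cells, and several signal through Gs, Gi or G12/13 proteins. In epithelia and neurons they are known for cell polarity, synapse formation and sensing of contact or force, and many still lack a known ligand.

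With 1 library per group no difference has a replicate check, no test between groups was possible, and no p-value is given. Levels are in scaled FPKM, the deposited length-normalised value divided by 1 common number so that a library sums to about 1000000. Ratios between libraries were taken after adding 1 to each value, which understates the difference of low genes, and brackets give 95% counting intervals within these libraries. In bulk RNA of this kind, fewer cells of a type and less RNA per cell cannot be told apart. Read bases came to 592.1, 1380 and 1030 Mb in the GIP, tomato and negative libraries, and in that order Gip stood at 241317, 28007 and 729.3 scaled FPKM. The other cells in each sort differed, as the plot of marker lists by library shows. The 6 measured goblet cell markers summed to 4848, 164044 and 29247, the 8 enterocyte markers to 7615, 6500 and 32658, and the 10 lymphocyte markers to 398.8, 67.7 and 171.0. Each of those goblet and enterocyte markers was at 1 or more in all 3 libraries, and the T cell gene Trac was listed at 0 in the tomato library. The 7 enteroendocrine markers summed to 12361, 23467 and 366.5, with none at 0. By the study's description goblet and Paneth cells belong to the population without tomato, whereas the markers of both were highest in the tomato library. The share of these cells in any value below was not tested.

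**Figure D1:**
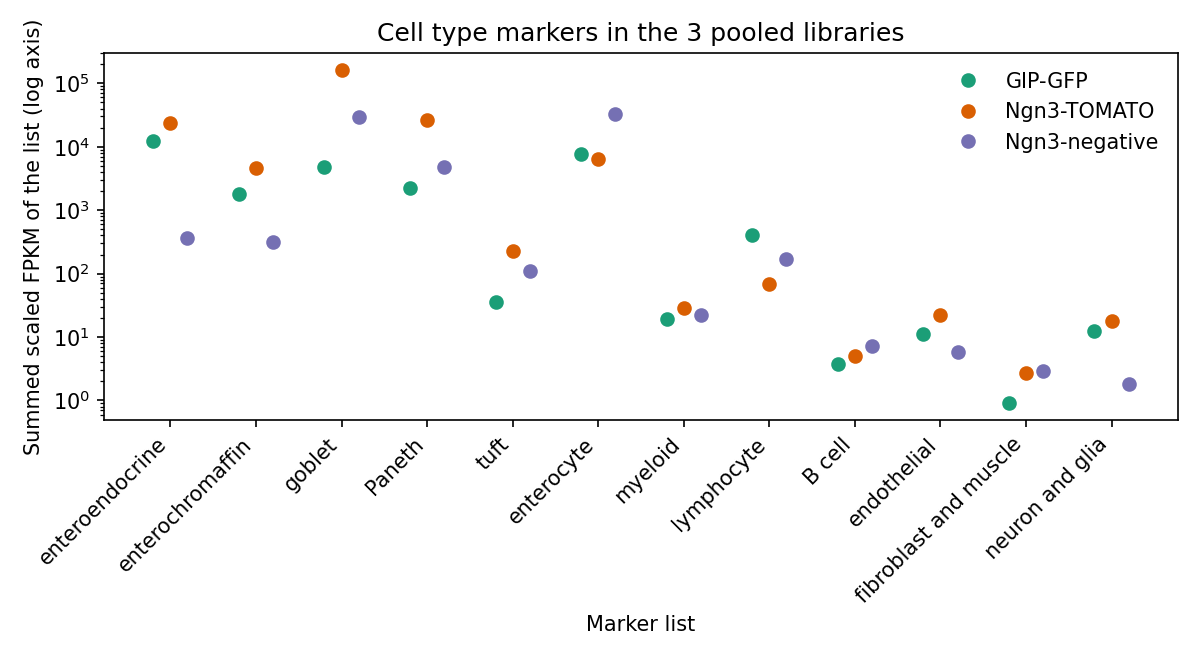
Summed scaled FPKM (log axis) of 12 cell type marker lists, 1 point per pooled library. Enteroendocrine markers were lowest in Ngn3-negative at 366.5, goblet markers highest in Ngn3-TOMATO at 164044, enterocyte markers highest in Ngn3-negative at 32658, and lymphocyte markers highest in GIP-GFP at 398.8.

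Of the 30 genes, 10 reached 10 scaled FPKM in at least 1 library, 5 reached 1 but not 10, and 15 stayed under 1 in all 3. The family summed to 722.6 scaled FPKM in the GIP library, 805.0 in the tomato library and 369.5 in the negative library. A single gene made up most of what was measured in 2 of the libraries, and it was not the same gene. Adgrg4 held 54.2% of the family's sum in the tomato library and 42.3% in the GIP library but 1.47% in the negative library. Adgrg7 held 69.6% in the negative library, 12.7% in the tomato library and 10.9% in the GIP library. Adgrg1 followed in the GIP library with 13.7%, and Adgra3 in the negative library with 7.83%.

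**Figure D2:**
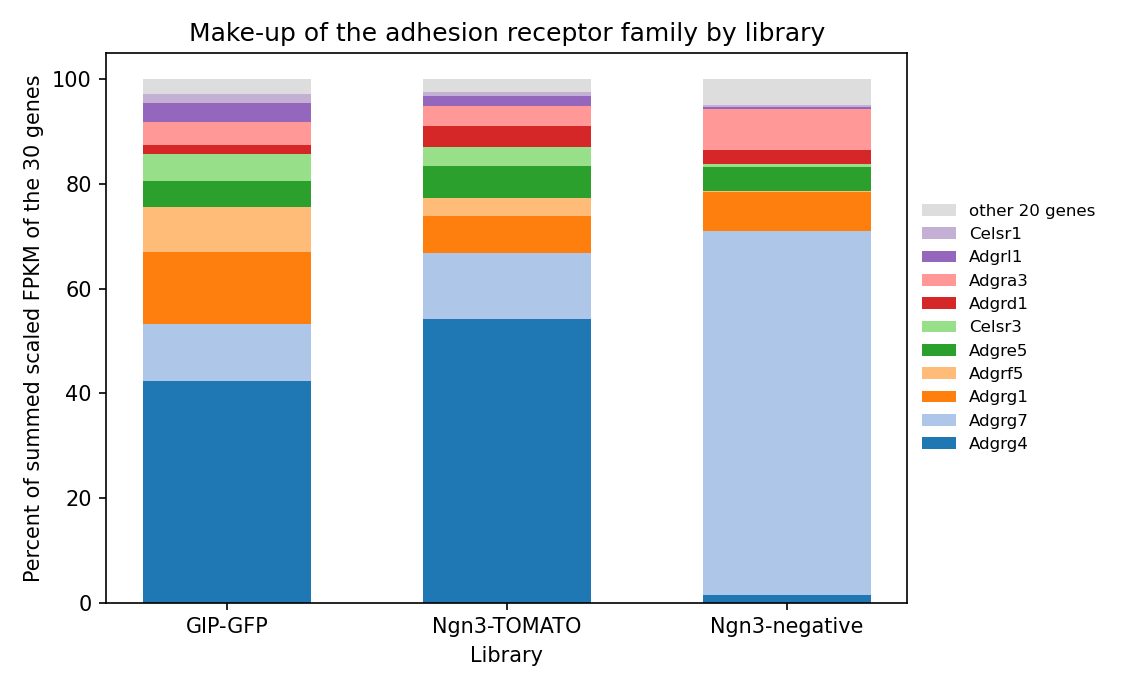
Percent of the summed scaled FPKM of the 30 genes taken by each of the 10 most abundant members and by the other 20, for each library. Adgrg4 fills 42.3% and 54.2% of the bars of GIP-GFP and Ngn3-TOMATO, and Adgrg7 fills 69.6% of the Ngn3-negative bar.

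The counts between libraries describe the members that could be compared and are not a test. Against the negative library, 14 of the 30 genes were at 1 scaled FPKM or more in either library. In the tomato library 9 of these 14 were at least 2-fold higher, where 19.3% of all 13443 compared genes were, and 1 was at least 2-fold lower, where 9.97% of all genes were. Of the 9, Adgrf5 and Adgrg2 passed the filter only through the library in which they were higher. In the GIP library 7 of 14 were at least 2-fold higher beside 21.1% of 13467 genes, Adgrf5 again passing through the GIP library alone, and 1 was lower beside 13.8%. Between the reporter libraries 15 members were compared. Adgrf5 and Celsr1 were at least 2-fold higher in the GIP library, where 8.07% of 13734 genes were, and Adgrd1 and Adgrg2 at least 2-fold lower, where 8.79% were. At least 4-fold higher than in the negative library were 4 of 14 members in the tomato library (8.85% of all genes) and 5 of 14 in the GIP library (10.2%), and 0 were 4-fold lower in either (1.93% and 2.78%). Between the reporter libraries 0 of 15 were 4-fold higher or lower (2.1% and 3.23% of all genes). The median log2 ratio of the compared members was 1.23 for the tomato library and 0.75 for the GIP library against the negative library and 0.16 between the reporter libraries, beside medians of 0.03, 0.07 and 0.08 over all genes. The member medians include genes that passed the filter through 1 library alone. The comparisons share libraries and are not independent. Scaling the libraries to equal totals moved the median of all genes by -0.23 and -0.21 in the comparisons with the negative library. Of all genes past 2-fold between the tomato library and the negative library, 65.9% were higher as deposited and 53.2% after that scaling.

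**Figure D3:**
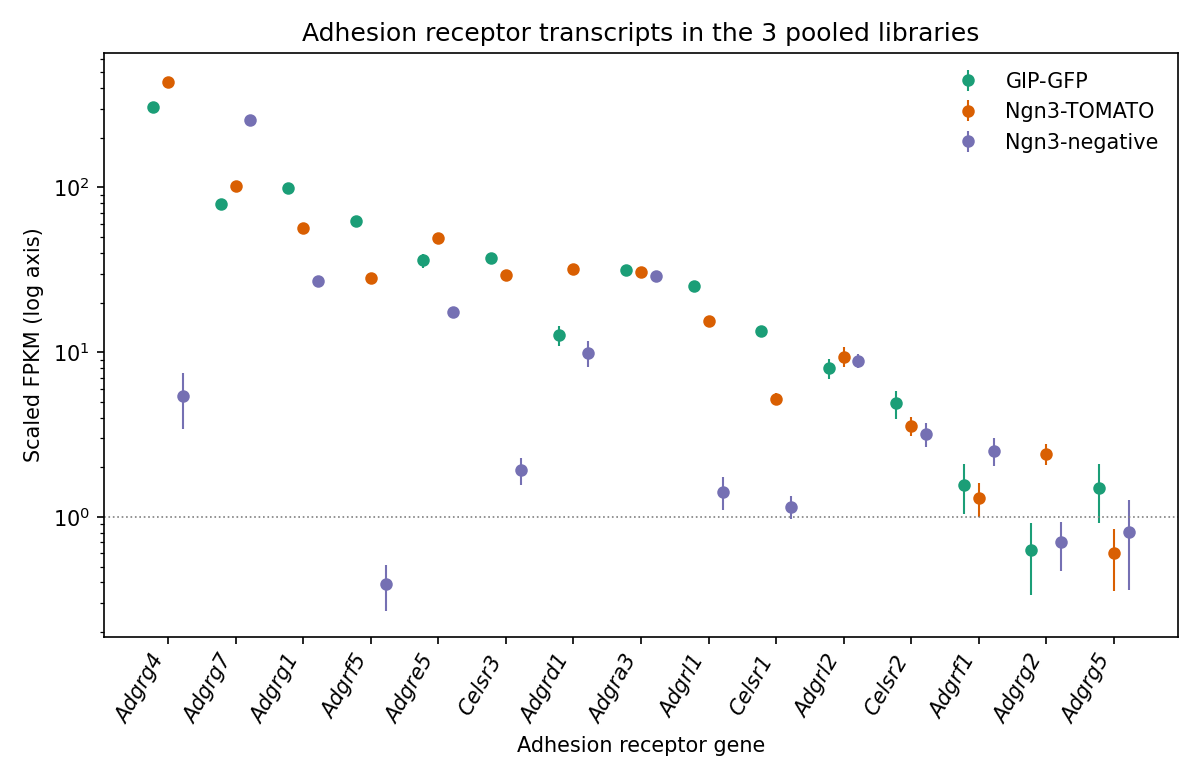
Scaled FPKM (log axis) of the 15 members at 1 or more in at least 1 library, 1 point per pooled library, with bars for 95% counting intervals and a dotted line at 1. Adgrg4 lies at 306 and 436 in the reporter libraries and at 5.43 in Ngn3-negative, Adgrg7 runs the other way, and Adgra3 is nearly level.

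Adgrg4, formerly Gpr112, is an orphan receptor known as a marker of enterochromaffin cells, the serotonin-making cells of the gut. It stood at 306 scaled FPKM in the GIP library, 436 in the tomato library and 5.43 in the negative library, and was the most abundant member in both reporter libraries. In the tomato library 99.0% of all genes lay below it. Its log2 ratio was 6.09 (5.63 to 6.54) for the tomato library against the negative library, the 11th highest of 13443 genes, and 5.58 (5.12 to 6.04) for the GIP library against the negative library, the 87th highest of 13467. Between the reporter libraries the ratio was -0.51 (-0.62 to -0.40), lower in the GIP library by less than 2-fold. Of 7 enterochromaffin markers, Tph1, Tac1, Slc18a1, Lmx1a and Trpa1 were lower in the GIP library by more than Adgrg4 was, and Fev and Ddc were higher there. Tph1, which encodes the enzyme that starts serotonin synthesis in the gut, was at 38.4 in the GIP library and 2008 in the tomato library. The irritant-sensing channel gene Trpa1 was at 2.27 and 249, and the transcription factor gene Lmx1a at 2.64 and 135.8. Fev, a transcription factor of serotonin cells, was at 255.2 and 170.2, and Ddc, the enzyme that completes serotonin synthesis, at 1408 and 553.9. Among 10457 genes at 10 or more in some library, the 5 whose pair of log2 ratios lay nearest to that of Adgrg4 over these 3 libraries were Chgb, Sst, Tnfrsf12a, Cck and Neurod1, at distances of 0.19 to 0.47. Chgb, a granin of secretory granules, was at 7665, 12096 and 192.2 in the GIP, tomato and negative libraries. Neurod1, a transcription factor of enteroendocrine cells, was at 393.1, 606.5 and 11.3. Sst, the somatostatin gene, and Cck, the cholecystokinin gene, were at 15419 and 9276 in the GIP library, 18423 and 15969 in the tomato library and 258.8 and 183.6 in the negative library. Tnfrsf12a was at 70.6 and 76.3 in the reporter libraries and listed at 0 in the negative library.

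The value of Adgrg4 rests on a small part of the gene. It is annotated at chrX:56870163-57001558 with transcripts of up to 9329 bases, whereas the 2 listed models, uc009tgt.2 (698 bases, chrX:56968120-56980352) and uc009tgs.2 (1056 bases, chrX:56963406-56980352), are short, and the longer has 11.3% of the length of the longest annotated transcript. Both models end at the same base, so their split is an estimate of the authors' software. The shorter model was at 206 in the GIP library (189 to 223), 242 in the tomato library (229 to 255) and 2.12 in the negative library (0.58 to 3.67). The longer was at 99.8 (90.2 to 109.3), 193.9 (185.3 to 202.6) and 3.31 (2.03 to 4.59). It held 32.6% of the gene in the GIP library and 44.5% in the tomato library, and the intervals of neither model overlapped between these libraries. Read bases behind the gene were 68.8 kb in the GIP library, 248.9 kb in the tomato library and 2.49 kb in the negative library. What the exons outside these models held was not analysed here.

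The start regions of 4 members are shown beside their levels. Of the members at 10 or more with a RefSeq window, Adgrf5, Adgrg7 and Adgra3 have a RefSeq start that is that of their most abundant listed transcript. Adgrg4 was added as the most abundant member. Each is the 250 bases before the RefSeq start on GRCm38.p6, 5′ to 3′ on the strand of the gene, with CpG dinucleotides in capitals.
Adgrg4, chrX:56893984-56894233, plus strand: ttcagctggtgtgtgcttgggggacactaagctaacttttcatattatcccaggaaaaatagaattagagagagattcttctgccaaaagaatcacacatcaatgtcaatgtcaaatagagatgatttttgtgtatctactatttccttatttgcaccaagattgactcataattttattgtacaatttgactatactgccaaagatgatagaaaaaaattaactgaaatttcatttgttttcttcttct
Adgrf5, chr17:43389216-43389465, plus strand: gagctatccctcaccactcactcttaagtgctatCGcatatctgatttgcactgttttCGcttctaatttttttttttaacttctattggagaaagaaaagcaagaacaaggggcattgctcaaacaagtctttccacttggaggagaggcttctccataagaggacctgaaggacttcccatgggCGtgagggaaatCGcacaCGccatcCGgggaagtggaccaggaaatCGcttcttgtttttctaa
Adgrg7, chr16:56795859-56796108, minus strand: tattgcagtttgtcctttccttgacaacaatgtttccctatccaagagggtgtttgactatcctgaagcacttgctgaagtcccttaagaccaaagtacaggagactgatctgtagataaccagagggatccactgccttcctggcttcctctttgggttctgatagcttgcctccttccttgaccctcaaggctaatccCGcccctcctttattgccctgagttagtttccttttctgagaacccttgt
Adgra3, chr5:50058997-50059246, minus strand: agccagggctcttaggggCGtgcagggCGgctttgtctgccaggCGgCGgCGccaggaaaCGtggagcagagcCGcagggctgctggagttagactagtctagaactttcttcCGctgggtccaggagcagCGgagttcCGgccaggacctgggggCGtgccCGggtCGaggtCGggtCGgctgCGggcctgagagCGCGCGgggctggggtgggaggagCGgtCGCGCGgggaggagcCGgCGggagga
The RefSeq start of Adgrg4 lies 73.9 kb before the start of the shorter model. RefSeq windows were matched by symbol for 22 of the 30 members. Adgrd1, Adgre5 and Celsr1, also at 10 or more, had no matched window, so their starts were not checked. The Adgrg4 window had 0 CpG and 31.6% G and C, the Adgrg7 window 1 CpG, the Adgrf5 window 7 and the Adgra3 window 25, beside a median of 6 over 32841 windows of all genes. More CpG than in the Adgra3 window was found in 9.59% of them. Among the other members at 10 or more with a window, Adgrl1 had 21 CpG, Celsr3 had 17 and Adgrg1 had 4 in each of 2 windows. A second Adgrf5 window had 5. Both strands were searched for CAGATG, an E-box bound by NEUROD and NEUROG factors, for AGATAA, which binds factors of the GATA family, and for TTTATG, which binds CDX factors. The 4 windows held 1 match in all, AGATAA at 136 bases before the start of Adgrg7, so no matches overlapped. In all windows CAGATG was found in 14.4%, AGATAA in 9.99% and TTTATG in 10.8%. A window without a match says only that these letters are not in it.

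Adgrf5, also called GPR116, keeps lung surfactant in balance and is known from alveolar and endothelial cells. Its transcripts were at 62.8 scaled FPKM in the GIP library, 28.0 in the tomato library and 0.391 in the negative library. The log2 ratio was 5.52 (5.38 to 5.66) for the GIP library and 4.38 (4.25 to 4.52) for the tomato library against the negative library, and 1.14 (1.06 to 1.21) between the reporter libraries. Of the compared members it had the second highest ratio after Adgrg4 in both comparisons with the negative library. For the GIP library that order turned with a pseudocount of 0.1 (7.003 for Adgrf5 and 5.79 for Adgrg4) and with equal totals (5.42 and 5.39). The sum of the endothelial markers was also lowest in the negative library, but it was highest in the tomato library. The 9 listed summed to 11.2, 22.5 and 5.71 in the GIP, tomato and negative libraries. The defining genes Cdh5 and Kdr were listed at 0 in both reporter libraries. Eng was at 0 in all 3, Pecam1 was at 1.97, 9.69 and 0.342, and the highest, Esam, at 8.83, 10.9 and 4.62. Adgrl4, an adhesion receptor of endothelium, was listed at 0 in every library. The part of endothelial cells in the Adgrf5 values was not tested. The 2 Adgrf5 models with a value, uc008cpa.1 (8535 bases, chr17:43389466-43459557) and uc008cpb.1 (7727 bases), were at 37.6 and 25.2 in the GIP library and 16.4 and 11.6 in the tomato library. The longer held 59.8% and 58.6% of the gene, so the split was alike in these libraries. In the negative library only the longer model had a value.

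The Celsr genes encode large cadherins that place cells along the plane of a tissue, and Celsr3 guides growing axons. Celsr3 (chr9:108840000-108852969 for its most abundant model) stood at 37.3 scaled FPKM in the GIP library, 29.5 in the tomato library and 1.92 in the negative library. Against the negative library the log2 ratio was 3.71 (3.51 to 3.91) for the GIP library and 3.38 (3.19 to 3.57) for the tomato library. Both reporter libraries were far above the third, and they differed from each other by 1.26-fold. The full-length Celsr3 model, uc009rrb.1 with 11547 bases, was at 14.5, 13.7 and 0.400, and the shorter, uc009rrc.1 with 5111 bases, at 22.7, 15.8 and 1.52. Celsr1 (chr15:85898758-86033777) was at 13.4, 5.21 and 1.15 in the same order, with a log2 ratio of 2.75 (2.59 to 2.90) for the GIP library and 1.53 (1.37 to 1.69) for the tomato library against the negative library. It was 2.32-fold higher in the GIP library than in the tomato library, and with a pseudocount of 5 both its ratio there (0.85) and that of the tomato library against the negative library (0.73) were under 2-fold. Celsr2, at 4.88, 3.58 and 3.18, differed by less than 2-fold in each comparison.

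Adgrl1, latrophilin 1, is the receptor through which black widow spider venom triggers vesicle release. It was at 25.1 scaled FPKM in the GIP library, 15.5 in the tomato library and 1.42 in the negative library, log2 ratios of 3.43 (3.22 to 3.65) and 2.77 (2.57 to 2.97) over the negative library. Most of it in the reporter libraries was assigned to uc009mli.2 (chr8:83924151-83941954), whose start lies within the gene, with 89.8% in the GIP library and 83.3% in the tomato library. In the negative library that model held 46.1% of a far lower value. Markers of neurons and glia were also lower in the negative library. The 9 listed summed to 12.4, 18.1 and 1.84 in the GIP, tomato and negative libraries, with 3, 5 and 1 of them at 1 or more. The glial gene Sox10 was listed at 0 in all 3, and the part of such cells in the values of Celsr3 and Adgrl1 was not tested. Of the other latrophilins, Adgrl2 was at 8.0, 9.41 and 8.86, with all 3 libraries near each other. Adgrl3, under 1 throughout, was at 0.635 (0.21 to 1.06), 0.365 (0.18 to 0.55) and 0.0774 (0 to 0.17). At this level no order of libraries is given.

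Adgrg1, or GPR56, binds collagen III, shapes the developing cortex, and is found on cytotoxic lymphocytes and in pancreatic islets. It was at 98.9 scaled FPKM in the GIP library, 56.5 in the tomato library and 27.2 in the negative library, the second most abundant member of the GIP library. The log2 ratio was 1.83 (1.71 to 1.94) for the GIP library against the negative library. For the tomato library it was 1.03 (0.92 to 1.14), which fell under 2-fold with equal totals (0.79) and with a pseudocount of 5 (0.93). In the reporter libraries the whole value was assigned to uc009mxo.2 (chr8:95002427-95014208). The negative library had 20.4 of that model and 6.79 of uc009mxl.2, which starts farther upstream and was listed at 0 in the other libraries. Adgre5, or CD97, is a leukocyte receptor for CD55 and is made in forms with different numbers of EGF-like domains. It was at 36.1, 49.0 and 17.5 in the GIP, tomato and negative libraries. The ratio over the negative library was 1.44 (1.30 to 1.57) for the tomato library and 1.00 (0.83 to 1.18) for the GIP library, the latter at the edge of 2-fold and under it with equal totals (0.80). The 3 Adgre5 models with a value had the same ends (chr8:83723251-83741311) and lengths of 2965, 3118 and 3253 bases. The shortest was at 13.5, 28.9 and 17.5, the middle at 11.6, 11.3 and 0, and the longest at 10.97, 8.82 and 0. With shared ends their split is an estimate of the authors' software, which gave the negative library the shortest model alone. Taken by that model, the GIP library was below the negative library, with a log2 ratio of -0.35, and the tomato library above it by 0.70. Over 101 bases Adgre5 overlaps Ddx39 on the other strand, at 54.4, 63.0 and 126.2, and reads there cannot be told apart without strand.

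The sum of the lymphocyte markers was highest in the GIP library, where no CD45 gate is stated, and all 10 were at 1 or more there. Trac alone of the 10 was not highest there, at 3.41 against 3.47 in the negative library. Ptprc, which encodes CD45, was at 6.53, 3.69 and 3.73 in the GIP, tomato and negative libraries, and the granule protease gene Gzma at 243.0, 36.1 and 94.5. Adgrg5, a receptor of leukocytes, was at 1.505 (0.91 to 2.10), 0.60 (0.35 to 0.85) and 0.814 (0.36 to 1.27) in the same order. The interval of the negative library overlapped both others, so the order of libraries for Adgrg5 was not resolved. It passed the filter through the GIP library alone. Adgrg1 and Adgre5 did not follow the order of the lymphocyte sum, being lowest in the negative library. The part of lymphocytes in these 3 genes was not tested. Adgre1, the macrophage antigen F4/80, was listed at 0 in the GIP library and the tomato library and at 0.104 in the negative library. The 10 myeloid markers summed to 19.5, 28.4 and 22.0, with C1qb at 0 in all 3. The higher sum of the tomato library came from C1qa, at 0.171, 10.8 and 0.0835 in the GIP, tomato and negative libraries. Itgam, Cd68 and Cd14 were highest in the negative library and Lyz2 in the GIP library.

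Adgrd1 and Adgrg2 were at least 2-fold higher in the tomato library than in both other libraries. Adgrd1, or GPR133, a receptor that couples to Gs (chr5:129096750-129204599), was at 31.8 scaled FPKM in the tomato library, 12.7 in the GIP library and 9.91 in the negative library. Its log2 ratio was 1.59 (1.35 to 1.83) for the tomato library against the negative library and -1.26 (-1.45 to -1.07) for the GIP library against the tomato library. The GIP library and the negative library differed by 1.26-fold. Adgrg2, a receptor best known from the epididymis, was at 2.42, 0.625 and 0.701 in the same order, close to the lower limit of comparison, and it was compared in both cases only through the tomato library. Both calls were lost with a pseudocount of 5 and with a filter at 5, and that against the negative library also with equal totals (0.88). The lists with the highest sum in the tomato library were goblet, Paneth, tuft, enterochromaffin, enteroendocrine, myeloid, endothelial, and neuron and glia. Some of their markers, such as Fev and Ddc, were highest in the GIP library, and of the myeloid markers C1qa alone was highest in the tomato library. The part of these cells in the values of Adgrd1 and Adgrg2 was not tested. Paneth markers summed to 2266, 26786 and 4751 in the GIP, tomato and negative libraries, tuft markers to 35.3, 223.3 and 108.9, and enterochromaffin markers to 1798, 4608 and 315.2. The tuft marker Il25 was listed at 0 in the GIP library, and no other measured goblet, Paneth, tuft or enterochromaffin marker was at 0.

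Adgrg7, or GPR128, is an orphan receptor of the intestinal lining (chr16:56724609-56795858). It was the one compared member more than 2-fold lower in the reporter libraries, at 78.8 scaled FPKM in the GIP library and 102 in the tomato library against 257 in the negative library, where it was the most abundant member and above 97.7% of all genes. The log2 ratio was -1.69 (-1.77 to -1.61) for the GIP library and -1.32 (-1.38 to -1.27) for the tomato library. Even so it was the second most abundant member in the tomato library and the third in the GIP library. Enterocyte genes were lower in the same libraries, with the fatty acid binding protein gene Fabp2 at 2885, 2192 and 11213 and the alkaline phosphatase gene Alpi at 223.1, 219.0 and 1428 in the GIP, tomato and negative libraries. The part of enterocytes in the Adgrg7 values was not tested.

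Adgra3, or GPR125, an orphan receptor linked to planar polarity (chr5:49959951-50058996), was nearly level, at 31.7, 30.9 and 28.9 scaled FPKM in the GIP, tomato and negative libraries. Its log2 ratios over the negative library were 0.13 (0.01 to 0.25) and 0.09 (-0.0022 to 0.18), and their sign turned with equal totals. Adgrl2 and Celsr2 were likewise under 2-fold in each comparison, with a sign that turned with the scaling for the tomato library against the negative library. Adgrf1, or GPR110, a receptor for the brain lipid synaptamide, was at 1.57, 1.30 and 2.52. The 15 members under 1 in every library included 14 with some value and Adgrl4 with none. Among them were the brain receptors Adgrb1 (0.287, 0.515 and 0.830), Adgrb2 (up to 0.142) and Adgrb3 (up to 0.314, listed at 0 in the GIP library and the negative library). Adgre4, Adgrf2, Adgrf3, Adgrf4 and Adgrg3 did not pass 0.249 in any library. Adgra2, which acts in brain vessels, stayed at or under 0.284. Adgrg6, needed for myelin formation by Schwann cells, reached 0.551 in the negative library. Adgrv1, the giant receptor of hair cells in the inner ear, reached 0.743 and Adgra1 0.786, both in the GIP library. At these levels no difference between libraries is given.

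**Figure D4:**
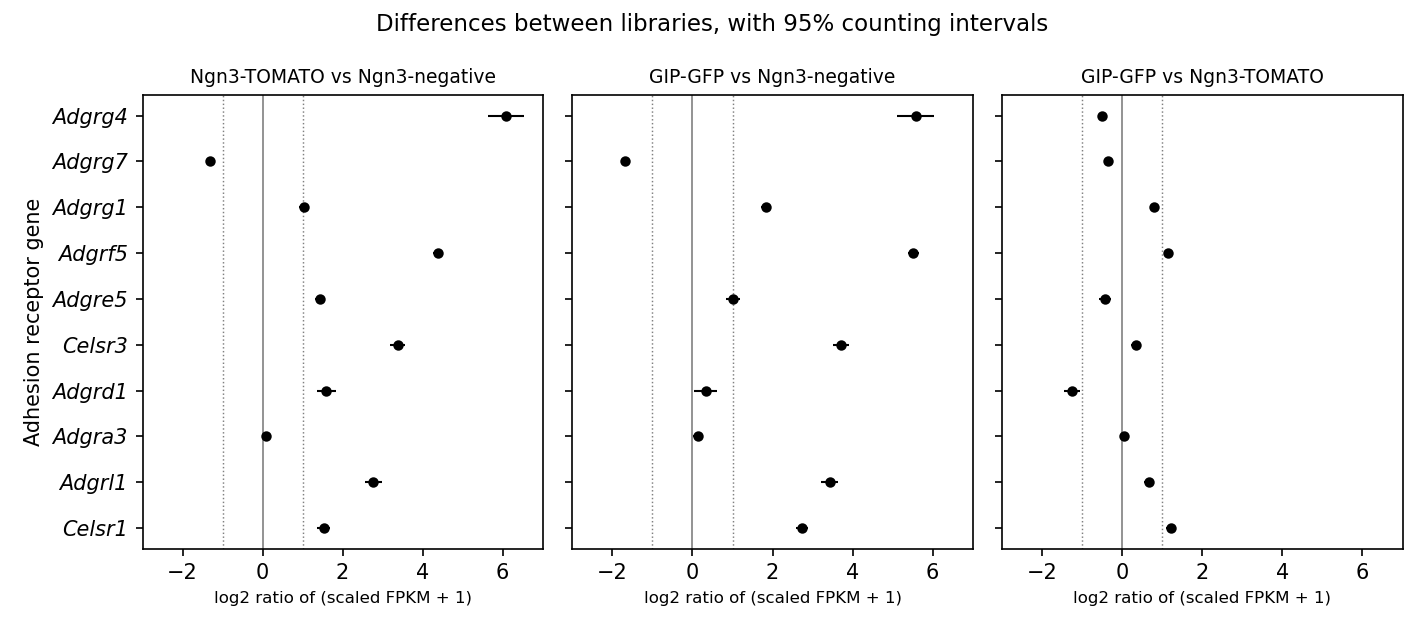
log2 ratio of scaled FPKM + 1 between libraries for the 10 members at 10 or more in at least 1 library, with 95% counting intervals, a solid line at 0 and dotted lines at 2-fold. Adgrg4, Adgrf5, Celsr3 and Adgrl1 lie at 2.77 or above against Ngn3-negative in both reporter libraries, Adgrg7 lies below -1, and the ratios between the reporter libraries run from -1.26 to 1.22.

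**Figure D5:**
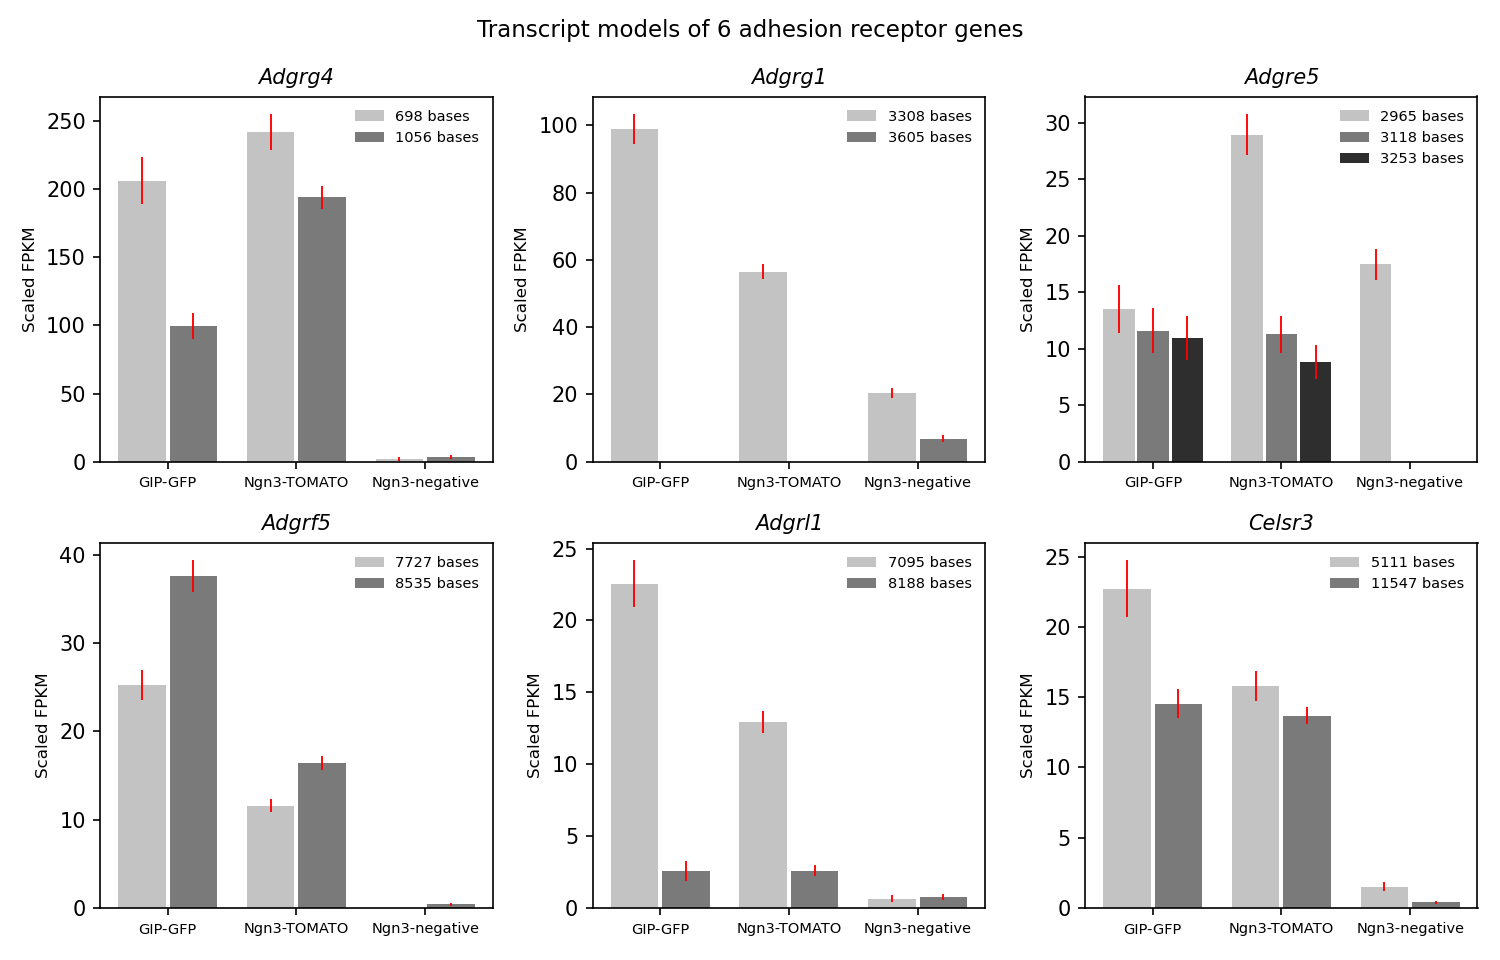
Scaled FPKM of the listed transcript models of 6 members (those at 1 or more in a library, named by length), 1 group of bars per pooled library, with red bars for the deposited 95% limits. Adgre5 in Ngn3-negative has a value for the 2965-base model alone, and Adgrg1 has a second model in Ngn3-negative alone.

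Partners of the receptors were taken from lists of ligands and signalling proteins. The shares over all genes at least 2-fold higher and lower than in the negative library, 19.3% and 9.97% for the tomato library and 21.1% and 13.8% for the GIP library, apply to each list. Genes that passed the filter through 1 library alone had to be higher in that library, though not by 2-fold. The counts and medians include them and are descriptions. Of 17 ligands and partners of adhesion receptors outside the latrophilins, 6 were compared between the tomato library and the negative library. Of these, 3 were at least 2-fold higher (C1ql1 through the tomato library alone) and 1 lower, with a median log2 ratio of 1.23. In the GIP library 1 of 5 was higher and 1 lower with a median of 0.83. Prnp, the prion protein and a ligand of Adgrg6, was at 606.2, 402.6 and 7.26 scaled FPKM in the GIP, tomato and negative libraries, although Adgrg6 itself was under 1. Tgm2, a transglutaminase that binds Adgrg1, was lower in the reporter libraries at 26.5, 37.6 and 94.7. Cd55, the ligand of Adgre5, was at 53.6, 40.5 and 29.7, under 2-fold apart. Dlg1, a scaffold that binds several of these receptors, was at 72.9, 44.98 and 39.9. Col3a1, which encodes the collagen ligand of Adgrg1, reached no more than 0.111. Of 14 latrophilin ligands and partners, 7 were compared, and 4 were at least 2-fold higher in the tomato library than in the negative library and none lower. Of the 4, Flrt1, Tenm4 and Nrxn2 passed the filter through the tomato library alone. In the GIP library 3 of 5 were higher, Tenm4 and Nrxn2 through the GIP library alone, and 2 lower. The medians, 1.55 for the tomato library and 1.69 for the GIP library, were the values of Nrxn2 and Tenm4, so they rest on the filter. At 1 or more in both the GIP library and the negative library were Unc5a (log2 ratio 4.04), Flrt3 (-1.48) and Unc5b (-2.06). Unc5a, a netrin receptor, was at 44.8, 28.7 and 1.78, whereas Flrt3, an adhesion ligand of the latrophilins, was highest in the negative library at 8.79, 14.7 and 26.4.

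Planar polarity genes that work with the Celsr cadherins were higher for 5 of 10 compared in the GIP library and 3 of 10 in the tomato library against the negative library, with none lower. Of these, 4 of the 5 and all 3 passed the filter only through the reporter library. Ankrd6 was at 21.03, 3.04 and 0.517 in the GIP, tomato and negative libraries, and Vangl2 at 9.40, 2.32 and 0.805. Fzd3, a frizzled receptor, was at 4.197, 1.58 and 0.0425. These 3 of the 10 compared were also at least 2-fold higher in the GIP library than in the tomato library, where 8.07% of all genes were. So was Celsr1, though not with a pseudocount of 5 (0.85). Celsr2 and Celsr3 were under 2-fold apart in that comparison. Dvl1, Dvl3 and Scrib, more abundant members of the list, were within 2-fold in all comparisons, and Dvl2, counted as higher in both, was listed at 0 in the negative library. The median log2 ratio of the compared genes was 0.68 for the GIP library and 0.65 for the tomato library. Both medians include the genes that passed the filter through the reporter library alone, so they do not describe the list as a whole. Among genes at 1 or more in both libraries, the ratios for the GIP library ran from -0.55 (Vangl1) to 1.00 (Fzd6). For the tomato library they ran from -0.42 (Dvl1) to 0.96 (Fzd6). Whrn, the whirlin scaffold that holds Adgrv1 in hair cells, was at 99.0, 58.8 and 12.0, while Adgrv1 stayed under 1.

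Of 16 G protein alpha subunits 13 were compared. Against the negative library 4 were at least 2-fold higher in the tomato library and 6 in the GIP library, and Gna11, a Gq-type subunit, was lower in both at 155.7, 173.3 and 452.9 in the GIP, tomato and negative libraries. Gnai1 and Gnaz, counted as higher in both, passed the filter only through the reporter library. The median was 0.98 for the GIP library and 0.76 for the tomato library. The subunits farthest apart belonged to the Gi and Go class. Gnao1 was at 274.9, 126.9 and 3.17, which gave log2 ratios of 6.05 (5.86 to 6.24) for the GIP library and 4.94 (4.75 to 5.13) for the tomato library. Gnai1 was at 51.6, 23.9 and 0.787. The most abundant subunit, Gnas, which encodes the Gs subunit, was at 1108, 776.1 and 525.2, and Gnai2 was at 242.9, 241.3 and 142.1. Of the G12/13 subunits, Gna12 was higher in the reporter libraries (35.1, 27.4 and 12.4) and Gna13 was under 2-fold apart (48.5, 49.3 and 68.3). Rhoa and its activators Arhgef1, Arhgef11 and Arhgef12 were within 2-fold in each comparison, as was Rac1 at 152.3, 187.0 and 255.8. The list of 10 had medians of 0.11 for the GIP library and -0.08 for the tomato library. In it none was at least 2-fold higher in any comparison, and Dock1 was lower in both reporter libraries than in the negative library at 4.75, 7.71 and 19.6. Elmo2, an engulfment partner, was lower in the tomato library alone by that limit, at 12.7, 10.6 and 24.8.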

How the data were processed

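Polyadenylated RNA of sorted cells was pooled in equal amounts per group and sequenced as 1 TruSeq library per group on a Genome Analyzer II, per the labels' protocols. Reads were processed with FastQC, TopHat 1.5.0 and Cufflinks on build mm10, per the submitters' processing notes. For each of 59120 UCSC transcripts the authors gave a coverage signal and an FPKM with lower and upper limits and a status, per the file headers. Summed over a library, the FPKM came to 1.02e+10, 1.07e+10 and 1.04e+10, so the library term behind it is unstated in the sources used here.

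Symbols came from GENCODE M21, of the same build, without use of strand, by ends, spliced length and a span overlap of at least 0.5 or a shared end within 10 bases, and 51692 received a symbol. FPKM of transcripts of 200 bases or more was summed per gene, without mitochondrial transcripts and without 4 genes whose reads exceeded the limit of the quantification, and divided by 8155. Of 95 transcripts of the members, 94 had status OK and 1 was too low to estimate. Deposited limits were taken as 2 standard errors, added as if transcripts were independent; they cover counting error only. Genes at 1 or more in either library were compared with a pseudocount of 1. Python 3.11.15, pandas 2.3.3, numpy 2.4.6 and matplotlib 3.10.9 were used, and the calculation was tested on simulated data. Promoter windows came from RefSeq (GRCm38.p6).

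The members, gene lists and settings were chosen with earlier results of these data known. All 30 members were accounted for. Those at 1 or more were given in all libraries and those at 10 or more with ratios and coordinates, and from each partner list the counts and the 2 to 4 most abundant members. For Adgrg4 the 5 genes of nearest pattern were named. Col3a1, Ankrd6, Vangl2, Fzd3, Dvl2, C1ql1, Flrt1, Tenm4, Nrxn2, Gnai1, Gnaz, Gna12, Gna13, Dock1 and Elmo2, which are not among those, were named after their values were seen. Alternatives were the pseudocount, the filter, the scaling, the most abundant transcript, the length limit and the match.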

Additional observations from a re-analysis of the deposited data

How the results depend on the processing

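The counts of members past 2-fold against Ngn3-negative stayed within 1.5 times of the reported 9 and 1 for Ngn3-TOMATO and 7 and 1 for GIP-GFP under all 9 alternatives. Between the reporter libraries, 2 higher and 2 lower became 1 and 1 with a pseudocount of 5, and the lower count became 1 with a filter at 5 scaled FPKM. With a pseudocount of 0.1 the higher count became 3, with Adgrg5 (1.20) added. With the most abundant transcript only, both counts became 3, with Adgrg5 (1.32) and Adgre5 (-1.05) added. The ratio of Adgre5 for GIP-GFP against Ngn3-negative turned from 1.00 to -0.35 when only its most abundant transcript was used, because 2 of its 3 models with a value were listed at 0 in Ngn3-negative. Ratios of Adgrg4, Adgrf5, Adgrl1, Celsr3 and Adgrg7 against Ngn3-negative kept their sign and stayed past 2-fold under each alternative, but their size moved: for GIP-GFP, Adgrf5 was 3.65 with a pseudocount of 5 and 7.003 with 0.1. No paired analysis was possible because each group has 1 pooled library, and for the same reason no library could be left out. Depth limits Adgrg4, Adgrf5, Celsr3 and Adgrl1 most in Ngn3-negative, where 1.67 to 6.21 kb of read bases lay behind each of them.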
